A study of Mus musculus with 20 samples.

Results

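Rhox and Xlr are a pair of gene families of the mouse X chromosome that are used in reproductive tissues. Their members were taken as every probe of the array whose gene name begins with Rhox or Xlr and a digit, which gave 39 of 55681 probes and 31 of 36413 gene names. Of these, 27 probes stood for 22 Rhox genes and 12 probes for 9 Xlr genes. By the coordinates of the scanner files (mm9), the Rhox probes span chrX:34753955-35476295 and the Xlr probes chrX:70319816-72203191, and the file gives the Rhox5 probe no position. The measurements come from 10 mouse pluripotent lines on 20 Agilent expression arrays of 1 colour, 2 for each line. Of these lines, 7 are induced pluripotent stem cell (iPSC) lines made by reprogramming factors, and 3 are embryonic stem cell (ESC) lines that serve as controls. The OSKM set holds the Yamanaka factors Oct4, Sox2, Klf4 and Myc. The SNEL set consists of Sall4, Esrrb, Lin28 and Nanog. Poor quality is the label of KH2_OSKM, Nanog-GFP OSKM#2 and Oct4-GFP OSKM#2, good quality that of Nanog-GFP SNEL#3 and BC_2 OSKM, and high quality that of Oct4-GFP SNEL#1 and Nanog-GFP SNEL#2. The controls are Nanog-GFP ESCs, Oct4-GFP ESCs and KH2 ESCs. All grew without feeder cells in 2i medium and had no treatment. The labels do not say how quality was graded or whether a line is a single clone. All 3 poor lines were made with OSKM and both high lines with SNEL, so that grade and factor set cannot be told apart at those ends.

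The Rhox genes (reproductive homeobox, X-linked) encode homeodomain transcription factors and lie in 1 cluster that is divided into the alpha, beta and gamma subclusters. They are known from the testis, the epididymis, the ovary, the placenta and embryonic stem cells, and DNA methylation is known to keep many of them silent in embryonic cells and somatic tissues. The Xlr genes (X-linked lymphocyte regulated) encode nuclear proteins related to the synaptonemal complex protein SYCP3, and the Xlr3b, Xlr4b and Xlr4c copies are known as imprinted genes of the brain.

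Both families consist of recent copies, which limits what a probe can tell. Of the 28 probes that were measurable, 13 are listed by the array's design against several RefSeq transcripts of different genes (6 Rhox and 7 Xlr probes) and 15 against a single gene. The Rhox2c probe is listed against Rhox2a, Rhox2b, Rhox2c and Rhox2e, the Rhox4g probe against Rhox4b, Rhox4e, Rhox4f and Rhox4g, and both Xlr3b probes against Xlr3a, Xlr3b and Xlr3c. A probe's name is therefore used here for the group of copies it can bind. The stretches below, from the deposited array files, show how close the targets are. The Rhox4a and Rhox4g probes differ at 2 bases, in capitals (C54T and T58C, counted from the 5′ end, Rhox4a base first). The Xlr4a and Xlr3b probes share 37 bases, of which the part inside each stretch is in capitals.
Rhox4a (A_55_P2000399, bases 31 to 60): agtcagttaggaatgaatgatgaCgccTct
Rhox4g (A_55_P1975667, bases 31 to 60): agtcagttaggaatgaatgatgaTgccCct
Xlr4a (A_55_P2124586, bases 14 to 43): aactttactgAGAATGTTTTGTTTGTGGAA
Xlr3b (A_55_P1965101, bases 3 to 32): ggagtaacttAGAATGTTTTGTTTGTGGAA
A pair of probes carry a tandem repeat, in capitals, so that they could bind transcripts of other genes that hold the same repeat. One Rhox8 probe counts 16 AGA units and the Rhox4e probe 4 GGCTTTC units.
Rhox8 (A_55_P1981829, bases 1 to 30): AGAAGAAGAAGAAGAAGAAGAAGAAGAAGA
Rhox4e (A_55_P1975665, bases 31 to 60): tttcGGCTTTCGGCTTTCGGCTTTCggctt

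Members whose levels differed widely between lines are read by the following probes, of which the first 30 bases are shown in lower case.
Xlr5b (A_55_P2157384, bases 1 to 30): atccatgaaagctctgaagaaaccatctga
Xlr5c (A_55_P2115981, bases 1 to 30): tgtactgtgaaagatttgggtcggtgtacc
Rhox2c (A_55_P2111756, bases 1 to 30): gtgagagtgttggtgcccaaattccgccac

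A level is the log2 signal of a probe minus that of its array's 75th percentile, so that 0 is the signal at that percentile. A probe was kept when the scanner software called it well above background on 4 or more of the 20 arrays. This held for 38750 probes of the array and for 28 of the 39 members, with 19 Rhox and 9 Xlr probes. Only 7 member probes, all of them Rhox, were well above background on all 20 arrays. The 11 probes that were not kept stood for Rhox3b (2 arrays), Rhox3-ps (0), 2 of the 3 Rhox3f probes (1 each), Rhox3g-ps (0), 1 of the 2 Rhox7 probes (2), Rhox11 (1), Rhox12 (0), 1 of the 2 Xlr5c probes (2), Xlr4d-ps (0) and Xlr4e-ps (3). The alpha subcluster kept 11 of 16 probes, beta 6 of 7 and gamma 2 of 4, and Xlr3, Xlr4 and Xlr5 kept 3 of 3, 3 of 5 and 3 of 4.

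Across the series, the share of probes well above background ran from 48.9% to 77.2% per array, and the 2 arrays of a line correlated at 0.971 or more, least for KH2_OSKM. The first KH2_OSKM array stood apart, with 77.2% of probes well above background against 58.2% on the second. The arrays of Oct4-GFP SNEL#1 had a similar gap, with 49.5% on the first and 68.0% on the second. The arrays lay on 3 slides. Slide 3 held only the second arrays of Oct4-GFP SNEL#1 and of the ESC lines. All poor and good arrays lay on slides 1 and 2, so slide and group are partly confounded. The level at which a probe counts as well above background also differed, from -6.31 to -4.00 between arrays, so levels of undetected probes have no meaningful order. The pluripotency list (Pou5f1, Nanog, Sox2, Esrrb and 6 others) was measured with 10 of 10 genes, and its summed log2 level lay between 9.20 and 9.60 in every line. Among fibroblast markers, Col1a1, Col1a2 and Col3a1 were above the 75th percentile in 2 or 3 of the 3 ESC lines and in Oct4-GFP SNEL#1, and the summed log2 level of the 7 kept markers was 2.67 to 3.32 there against 0.41 to 1.88 in the other 6 lines. Xist, the RNA that silences an X chromosome, was not well above background on any array, and the median level of X-linked genes lay within -0.05 to 0.04 of that of autosomal genes in each line. The sex-linked list (4 of 6 genes kept, Tsix and the Y-linked Ddx3y, Eif2s3y and Uty) set some lines apart, with a summed log2 level of -3.66 in Nanog-GFP ESCs, -1.53 in BC_2 OSKM and -0.39 in KH2_OSKM against 1.56 to 3.95 in the other 7 lines. Its median poor-minus-ESC difference was 2.01, with 4 of 4 genes positive and 0 called, and its part in the X-linked results was not tested.

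The number of members detected set the lines apart. Nanog-GFP OSKM#2 had 28 of 39 member probes well above background on both arrays and Oct4-GFP OSKM#2 had 27. KH2_OSKM had 21 (30 and 21 on its single arrays) and BC_2 OSKM had 23. The SNEL lines had 8 (Nanog-GFP SNEL#3), 13 (Nanog-GFP SNEL#2) and 17 (Oct4-GFP SNEL#1). Of the ESC lines, Nanog-GFP had 18, Oct4-GFP 16 and KH2 15. By this count on both arrays, all 4 OSKM lines lay above all 3 SNEL and all 3 ESC lines. Single arrays did not keep this order, since Oct4-GFP SNEL#1 had 18 and 27. Its second array, on slide 3, exceeded the second arrays of BC_2 OSKM (23) and KH2_OSKM (21), which were on slide 2. The Xlr family contributed much of the gap in the count on both arrays. Of its 12 probes, 10, 9, 3 and 6 were detected in the OSKM lines in the order given, and 0 to 2 in each of the other 6. The share of all probes well above background ran in part the same way. It was 50.1% to 58.8% in the SNEL lines, lowest in Nanog-GFP SNEL#3, 61.2% to 67.7% in the OSKM lines and 62.6% to 65.9% in the ESC lines. The part of this array-wide difference in the member counts was not tested.

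**Figure D1:**
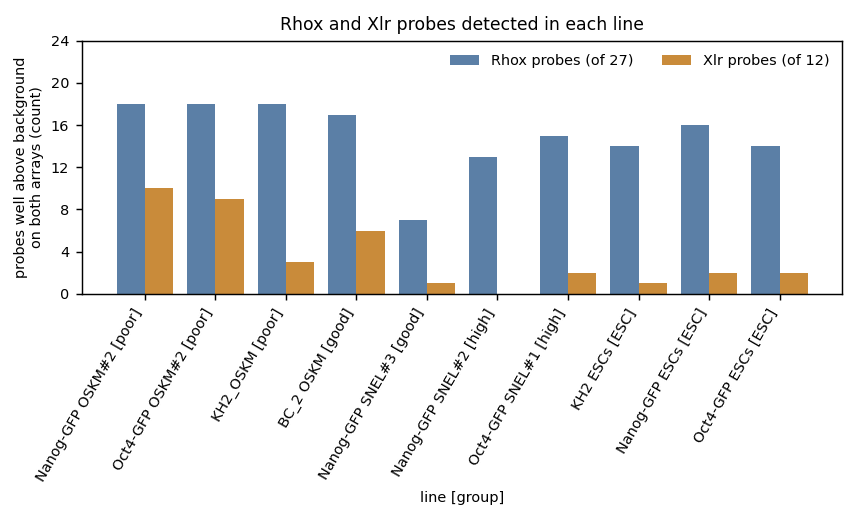
Number of Rhox probes (of 27) and Xlr probes (of 12) called well above background on both arrays of each line, with the group of the line in brackets. The 4 OSKM lines detect 3 to 10 Xlr probes and the other 6 lines 0 to 2.

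A moderated F test on the 20 arrays asked whether lines differed by more than the arrays of a line did. It called 20 of 28 member probes (71.4%) at an adjusted p under 0.05, where 58.6% of all 38750 probes were called, so the count alone is not far from the background. All 9 Xlr probes were called, with 6 of 11 in Rhox alpha, 3 of 6 in Rhox beta and both in Rhox gamma. The size of the differences stood further from the rest of the array. The range from the lowest to the highest line had a median of 3.77 log2 units over the members and 1.18 over all probes, and it passed 4 units for 12 of 28 members against 2.97% of all probes. These 12 were the 9 Xlr probes and the probes of Rhox2c, Rhox4g and Rhox2h (A_55_P1984343). Among them, Rhox2h (A_55_P1984343), Xlr3a, Xlr5b and Xlr5c would not have been kept without the arrays of poor lines. The count rested on 1 line, since without Nanog-GFP OSKM#2 it was 4 of 28. It also depended on how dim signals are treated, with 5 members after raising every level to a common floor of -4.00 (0.893% of all probes), 5 under normexp background correction and 6 in the authors' deposited values. Apart from the common floor, the share of all probes is not given for these settings. Those counts alone therefore do not set the members apart from the array. Among the 3 ESC lines the median range was 0.80 for the members and 0.49 for all probes.

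**Figure D2:**
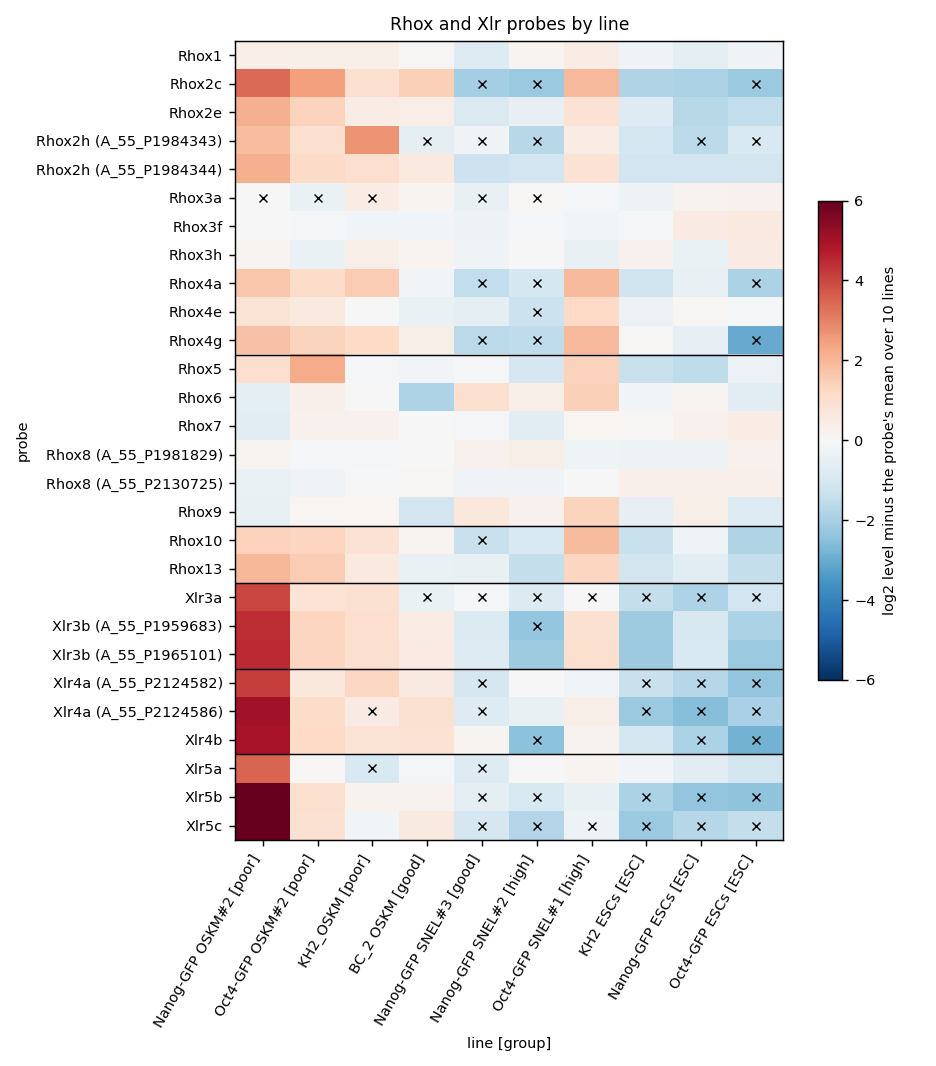
Level of each of the 28 kept probes in each line, as the log2 difference from the probe's own mean over the 10 lines (colour, cut at 6 units). Black lines part the subclusters Rhox alpha, beta, gamma, Xlr3, Xlr4 and Xlr5, and a cross marks a line in which neither array was well above background. The Xlr probes are highest in Nanog-GFP OSKM#2, while the Rhox2, Rhox4 and gamma probes are high in Nanog-GFP OSKM#2, Oct4-GFP OSKM#2 and Oct4-GFP SNEL#1.

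In what follows, levels by line are given in a fixed order. Poor lines come as Nanog-GFP OSKM#2, then Oct4-GFP OSKM#2, then KH2_OSKM. Good lines come as BC_2 OSKM, then Nanog-GFP SNEL#3, high lines as Nanog-GFP SNEL#2, then Oct4-GFP SNEL#1, and ESC lines as KH2, Nanog-GFP, Oct4-GFP.

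Within Rhox alpha, 6 of the 7 probes of Rhox2 and Rhox4 copies passed the test between lines, all but Rhox4e, and the Rhox1 and Rhox3 probes did not pass it. Rhox2c, a homeobox gene of the duplicated alpha block, had levels of -0.48, -1.42 and -2.93 in the poor lines, -2.43 and -5.90 in the good lines, -6.11 and -1.93 in the high lines and -5.70, -5.78 and -6.10 in the ESC lines. It was therefore high in the 4 OSKM lines and in Oct4-GFP SNEL#1 and low in both Nanog-GFP SNEL lines and all ESC lines, and it was not well above background on either array of Nanog-GFP SNEL#3, Nanog-GFP SNEL#2 or Oct4-GFP ESCs. The lines differed with a limma adjusted p of 1.72e-05. Rhox2e had -1.0, -1.78 and -2.73 in the poor, -2.75 and -4.01 in the good, -3.67 and -2.28 in the high and -3.91, -4.79 and -4.61 in the ESC lines. All poor lines lay above all ESC lines, and both Nanog-GFP SNEL lines lay near the highest ESC line. The brighter Rhox2h probe (A_55_P1984344) was well above background on all 20 arrays and had -0.14, -1.11 and -1.25 in the poor, -1.67 and -3.52 in the good, -3.43 and -1.42 in the high and -3.41, -3.42 and -3.39 in the ESC lines. The 3 ESC lines spanned 0.03 units here, and the Nanog-GFP SNEL lines lay just below them.

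The second Rhox2h probe (A_55_P1984343), listed against Rhox2h alone, was well above background on 8 arrays, 6 of them those of the poor lines. It had -3.64, -4.53 and -2.78 in the poor lines, with KH2_OSKM highest, and -6.54, -7.06 and -6.40 in the ESC lines. Rhox4a had -2.58, -3.16 and -2.75 in the poor, -4.42 and -5.71 in the good, -5.32 and -2.32 in the high and -5.44, -4.69 and -6.15 in the ESC lines. The Rhox4 copies are known from embryonic stem cells. Rhox4g had -2.62, -3.03 and -3.17, -3.99 and -5.95, -5.88 and -2.41 and -4.28, -4.83 and -7.38 in the same order of groups. For both, Oct4-GFP SNEL#1 was the highest of all lines, and neither array of the Nanog-GFP SNEL lines or of Oct4-GFP ESCs was well above background. The Rhox4e probe, with its repeat, had a range of 2.49 and missed the threshold of the line test (adjusted p = 0.0578), which it passed with the slide in the model (adjusted p = 0.0285).

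Taken over the 7 probes of Rhox2 and Rhox4 copies, the order of lines was much the same from probe to probe. Their target sequences overlap, so these are not independent readings. Nanog-GFP OSKM#2, Oct4-GFP OSKM#2 and Oct4-GFP SNEL#1 were each among the 4 highest lines for 7 of 7 probes, and KH2_OSKM for 5 of 7. Nanog-GFP SNEL#2, KH2 ESCs and Oct4-GFP ESCs were among the 5 lowest for 7 of 7, and Nanog-GFP SNEL#3 and Nanog-GFP ESCs for 6 of 7. The probes of Rhox1, Rhox3a, Rhox3f and Rhox3h spanned 0.89 to 1.21 log2 units over all lines, where 48.6% to 65.8% of all probes had as large a range.

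Both measurable gamma members varied between lines. Rhox13, a homeobox gene known from testis germ cells, was well above background on all 20 arrays and had 0.48, 0.03 and -0.90 in the poor, -1.91 and -1.95 in the good, -2.92 and -0.19 in the high and -2.59, -2.12 and -2.92 in the ESC lines. The poor lines and Oct4-GFP SNEL#1 were the 4 highest. The F test between lines, which does not compare groups, gave an adjusted p of 1.15e-05. Rhox10, known for its role in the formation of spermatogonial stem cells, had -2.06, -2.14 and -2.56, -3.27 and -4.78, -4.34 and -1.52 and -4.79, -3.68 and -5.26 in the same order. Oct4-GFP SNEL#1 was highest and Oct4-GFP ESCs lowest, and the same F test gave an adjusted p of 4.46e-07. Rhox11 and Rhox12 were well above background on 1 and 0 arrays.

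Members of the beta subcluster did not share 1 order of lines. Rhox5, the founding member of the cluster, known from Sertoli cells, the epididymis, the placenta and embryonic stem cells, lay above the 75th percentile of the array in every line. It had 6.40, 7.61 and 5.29 in the poor, 5.23 and 5.33 in the good, 4.40 and 6.78 in the high and 4.06, 3.86 and 5.06 in the ESC lines. Oct4-GFP OSKM#2 was highest and Oct4-GFP SNEL#1 second, and each poor line lay above every ESC line. The F test between lines gave an adjusted p of 3.23e-11, which does not compare poor with ESC lines. Rhox6, known from the placenta and the germ line, had -0.73, 0.14 and -0.17 in the poor, -2.01 and 0.77 in the good, 0.16 and 1.27 in the high and -0.35, -0.00 and -0.81 in the ESC lines (adjusted p between lines 1.07e-08). Rhox9, its neighbour and close relative, had 0.88, 1.42 and 1.45, 0.20 and 1.95, 1.58 and 2.63 and 0.83, 1.69 and 0.56 in the same order (adjusted p = 5.93e-09). For both genes the 3 SNEL lines lay above the 4 OSKM lines and BC_2 OSKM was lowest, though the nearest SNEL and OSKM lines were only 0.02 units apart for Rhox6. Both Nanog-GFP SNEL lines, low for Rhox2, Rhox4 and gamma probes, lay above Nanog-GFP OSKM#2 for these genes. Rhox7 and both Rhox8 probes were detected but spanned only 0.66 to 1.11 log2 units, and the lines did not pass the test for them. For the Rhox8 probe A_55_P2130725, all 7 iPSC lines lay below all 3 ESC lines, by 0.41 ± 0.13 log2 units (SE, 7 against 3 lines, adjusted p = 0.345).

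**Figure D3:**
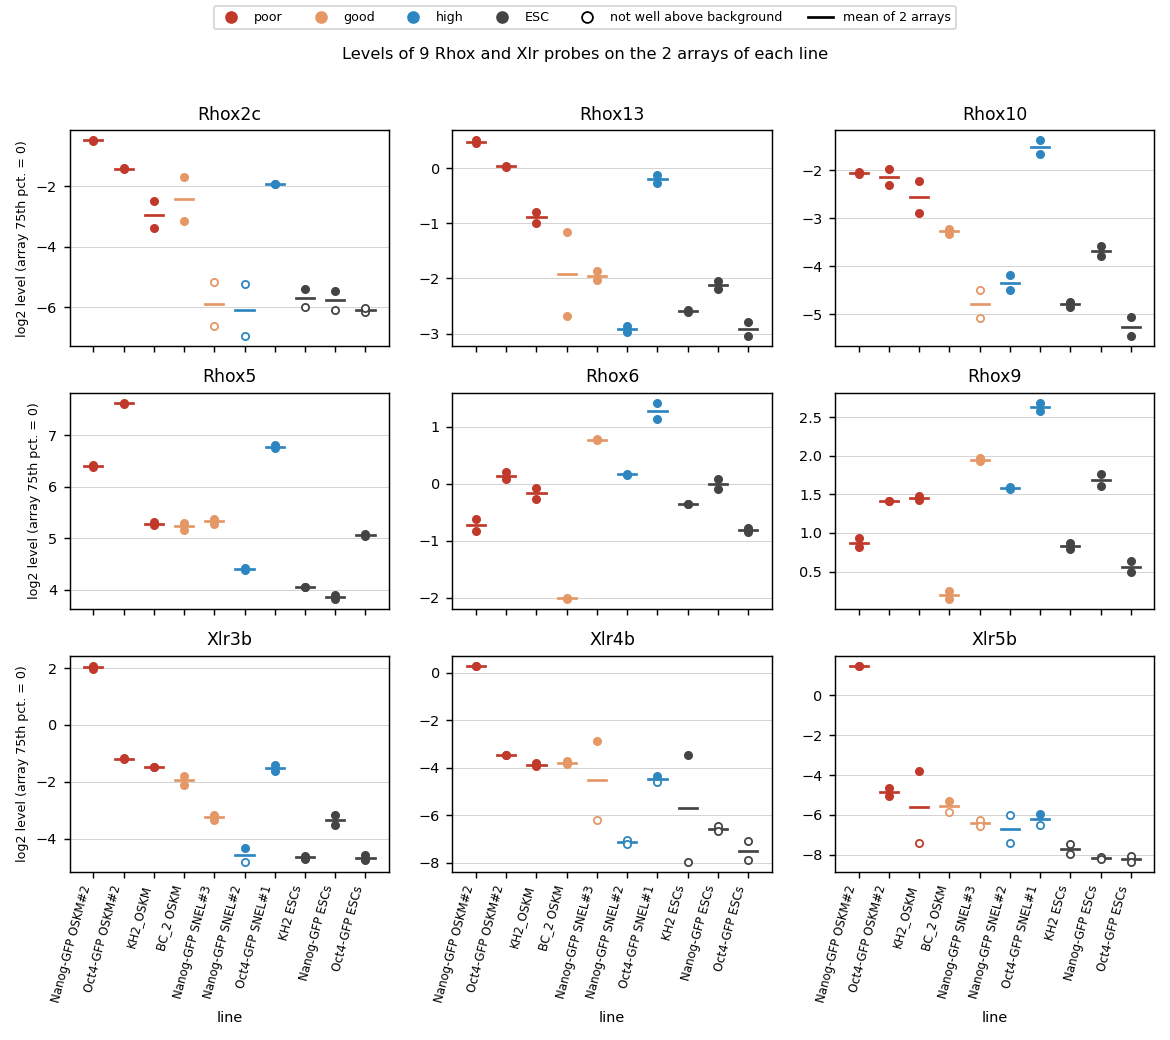
Log2 level (75th percentile of the array = 0) of 9 member probes on each array (points) and the mean of each line (bar), coloured by group. Open points were not well above background. Rhox2c, Rhox13 and Rhox10 are high in the OSKM#2 lines and Oct4-GFP SNEL#1, Rhox6 and Rhox9 are higher in the 3 SNEL lines than in the 4 OSKM lines, and Xlr3b, Xlr4b and Xlr5b are highest in Nanog-GFP OSKM#2.

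The Xlr probes had a common feature, a level in Nanog-GFP OSKM#2 above every other line for 9 of 9 probes. The gap to the second line ran from 2.88 log2 units (Xlr4a, A_55_P2124582) to 6.32 (Xlr5b). These values are those of a single line and do not describe poor lines in general. Of the 9 probes, 7 are listed against several genes, so they are not independent readings. The share of all probes highest in this line was not counted. Of 54 genes around the Xlr probes, 10 were highest in it. Xlr3b (A_55_P1965101), the best detected member with 19 arrays well above background, had 2.03, -1.18 and -1.48 in the poor, -1.94 and -3.25 in the good, -4.57 and -1.51 in the high and -4.66, -3.35 and -4.67 in the ESC lines (adjusted p between lines 4.39e-10). The second tier was formed by the other OSKM lines and Oct4-GFP SNEL#1, and the lowest values were those of Nanog-GFP SNEL#2, KH2 ESCs and Oct4-GFP ESCs. The other Xlr3b probe gave the same highest line, and the Xlr3a probe was well above background on 5 arrays, all of poor lines.

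Xlr4b had 0.29, -3.48 and -3.88 in the poor, -3.79 and -4.53 in the good, -7.13 and -4.48 in the high and -5.72, -6.58 and -7.50 in the ESC lines, and was well above background on 11 arrays, of which 1 was of an ESC line. Xlr5b had 1.47, -4.85 and -5.60 in the poor lines, -5.58 and -6.39 in the good, -6.71 and -6.21 in the high and -7.71, -8.14 and -8.20 in the ESC lines. The probe was well above background on 7 arrays in all, and on 0 of the 6 ESC arrays, so that its low values have no order. With every level raised to the common floor its range over the lines was 5.47 log2 units, and 0.227% of all probes had as large a range. Xlr5c (A_55_P2115981) had 1.85, -4.30 and -5.37 in the poor, -4.67 and -6.22 in the good, -6.97 and -5.54 in the high and -7.45, -6.94 and -6.63 in the ESC lines, and was likewise not well above background on any ESC array. Where a group was not well above background on any array, the fold is given as a lower bound, the bright group's mean against, per array, the higher of the dimmest detected signal and the probe's own. Against Nanog-GFP ESCs, Nanog-GFP OSKM#2 was at least 185-fold higher for Xlr5b and at least 241-fold higher for Xlr5c, and 42.3-fold and 41.7-fold higher for the Xlr3b probes, which were measured in both lines. These are the values of 2 arrays against 2, with no test.

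Promoter sequence was read for members whose probes varied together. RefSeq promoters (GRCm38.p6, a later build than the probe coordinates) were found for 24 of the 31 member genes. The 250 bases before the start held a median of 5.0 CG pairs in the members (4.5 in 16 Rhox genes, 7.0 in 8 Xlr genes) and 6.0 over 32851 genes, where CG pairs are the sites of DNA methylation. Xlr5b had 14, the most of any member, Xlr5a 12 and Xlr5c 1. All 3 Xlr5 probes were highest in the same line, but the Xlr5c probe is also listed against Xlr5a and Xlr5b. The relation of CG pairs to level was not tested. The letters TCCCGC, a core of E2F6 sites, were searched on both strands and found in 0 of 24 member promoters against 16.9% of all promoters of that length. CACGTG, the E-box bound by MYC and MAX partners, was found in 2 (Rhox4e and Rhox4g) against 6.02% of all. A match is no evidence of binding, and no match says only that these letters are not in this window. The promoters of the Rhox alpha, gamma and Xlr members described above are shown with CG in capitals.
Rhox2c (chrX:37453409-37453658, + strand): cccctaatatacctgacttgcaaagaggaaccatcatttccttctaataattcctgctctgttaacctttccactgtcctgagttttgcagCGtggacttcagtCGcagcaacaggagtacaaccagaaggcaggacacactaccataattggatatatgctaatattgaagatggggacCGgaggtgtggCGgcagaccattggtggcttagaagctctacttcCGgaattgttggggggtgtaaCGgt
Rhox4g (chrX:37651328-37651577, - strand): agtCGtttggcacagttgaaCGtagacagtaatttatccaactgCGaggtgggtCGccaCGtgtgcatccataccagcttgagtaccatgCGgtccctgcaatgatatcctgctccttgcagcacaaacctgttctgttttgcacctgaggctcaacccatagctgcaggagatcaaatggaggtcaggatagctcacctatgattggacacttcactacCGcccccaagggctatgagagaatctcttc
Rhox13 (chrX:38120590-38120839, + strand): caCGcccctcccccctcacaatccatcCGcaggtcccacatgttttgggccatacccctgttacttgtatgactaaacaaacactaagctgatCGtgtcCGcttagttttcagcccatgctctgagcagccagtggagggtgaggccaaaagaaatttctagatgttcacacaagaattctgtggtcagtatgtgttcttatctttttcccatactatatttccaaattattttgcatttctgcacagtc
Xlr3b (chrX:73191929-73192178, + strand): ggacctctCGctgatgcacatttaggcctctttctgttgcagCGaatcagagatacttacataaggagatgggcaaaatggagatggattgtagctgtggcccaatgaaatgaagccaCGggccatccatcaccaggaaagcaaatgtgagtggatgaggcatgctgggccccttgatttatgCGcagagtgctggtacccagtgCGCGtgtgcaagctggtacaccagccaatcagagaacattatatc
Xlr5b (chrX:73148591-73148840, + strand): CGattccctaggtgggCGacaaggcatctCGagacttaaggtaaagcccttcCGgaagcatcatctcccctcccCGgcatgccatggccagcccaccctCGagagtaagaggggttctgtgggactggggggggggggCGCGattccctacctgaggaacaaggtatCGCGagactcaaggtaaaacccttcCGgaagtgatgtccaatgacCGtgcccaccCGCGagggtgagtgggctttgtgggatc

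The comparison of poor iPSC lines with ESC lines asked whether lines of low grade differ from the reference state. With lines as replicates, limma called 0 of 28 members at an adjusted p under 0.05, as it called 0% of all 38750 probes, while 19 of 28 members had an unadjusted p under 0.05 against 9.07% of all probes. The difference was positive for 23 of 28 members, with a median of 2.49 log2 units against -0.02 over all probes, and all poor lines lay above all ESC lines for 18 of 28 members, where 6.65% of all probes did. The 3 lines of each group lay the other way round for 1 member, the Rhox8 probe A_55_P2130725, against 10.1% of all probes. Dim signals enter this count, since with the common floor it was 11 of 28 (4.1% of all probes) and the median 1.00. The median was 0.94 under normexp correction and 1.32 in the authors' deposited values. The filter on detection also enters the count of 18. Rhox2h (A_55_P1984343), Xlr3a, Xlr5b and Xlr5c had 6 of 8, 5 of 5, 5 of 7 and 5 of 7 detected arrays in poor lines. Without those arrays they would not have been kept, so their place among the 18 is no independent support.

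By family, the median difference was 4.02 for the 9 Xlr probes, 2.56 for the 11 of Rhox alpha, 2.37 for the 2 of Rhox gamma and 0.12 for the 6 of Rhox beta. The Xlr and alpha medians include the probes that were kept only through arrays of poor lines. Without Nanog-GFP OSKM#2 the Xlr median was 2.79 and those of alpha and gamma were 2.18 and 2.17. Rhox2h (A_55_P1984343) had the smallest p, with -3.65 ± 0.88 in poor lines and -6.67 ± 0.34 in ESC lines (SD, n = 3 each) and a difference of 3.02 ± 0.59 (SE, adjusted p = 0.236). This probe was kept only through the arrays of poor lines, so its rank is no independent support. It was well above background on 1 ESC array, so the size of its difference is uncertain. Rhox2e followed at 2.60 ± 0.57 (adjusted p = 0.240). Xlr4a (A_55_P2124582), undetected on all ESC arrays, was at least 6.16-fold higher (adjusted p = 0.240), and its fitted difference of 3.82 ± 0.86 was 2.75 without Nanog-GFP OSKM#2. On slide 1, which holds a single ESC array (KH2 ESCs), the differences of Rhox2e and Xlr4a were 1.76 and 2.48. Rhox2c differed by 4.25 ± 1.22, Rhox13 by 2.41 ± 0.66, Rhox10 by 2.32 ± 0.75 and Rhox5 by 2.11 ± 0.74. In this comparison the lowest limma adjusted p was 0.236 in Rhox alpha, 0.305 in Rhox gamma and 0.430 in Rhox beta.

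**Figure D4:**
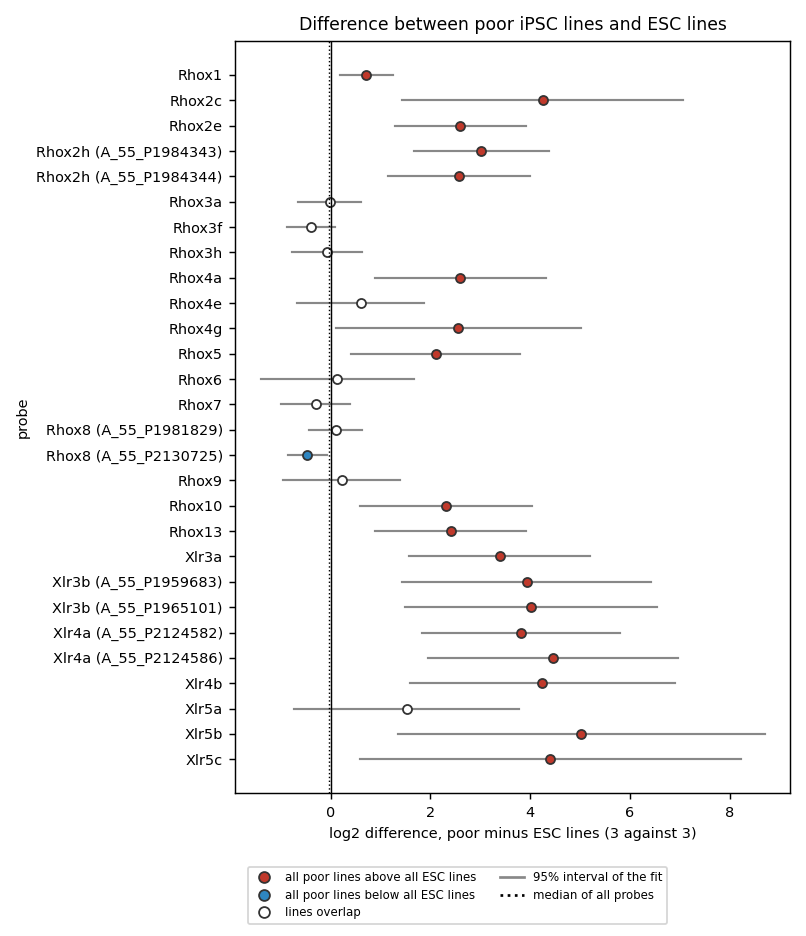
Difference between 3 poor iPSC lines and 3 ESC lines for each kept probe (point, log2) with the 95% interval of the limma fit. Red points mark the 18 probes whose poor lines all lie above all ESC lines, the blue point the 1 with the opposite order, and the dotted line the median of all probes at -0.02. Most Xlr, Rhox2, Rhox4 and gamma probes lie between 2 and 5.03 units and the Rhox3, Rhox6, Rhox7, Rhox8 and Rhox9 probes near 0.

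Good and high lines were set against the same ESC lines, with 0 of 28 members called in each comparison (0% of all probes). The comparisons share the ESC lines and are not independent of each other. For good lines against ESC lines, the median difference was 0.58 and 20 of 28 members were positive. Both good lines lay above all ESC lines for 11 members (6.88% of all probes) and below for 4 (13.8%). An unadjusted p under 0.05 was found for 1 of 28 members and 5.87% of all probes, so this count is near the background. With the common floor the 11 became 5 (5.57% of all probes). Xlr3a was among the 11 without being well above background on any array of either group. The smallest p values were those of Rhox3f (A_55_P2016367), with -0.56 ± 0.23 (adjusted p = 0.842), Xlr4a (A_55_P2124586), at least 1.59-fold higher (adjusted p = 0.941), and Xlr4b, with 2.44 ± 1.29 (adjusted p = 0.943). Against the only ESC array of slide 1, KH2 ESCs, the values of Rhox3f and Xlr4b were 0.10 and 0.18. For high lines against ESC lines the median was 0.98 and 23 of 28 were positive. Both high lines lay above all ESC lines for 8 members (5.75%) and below for 1 (15.5%). An unadjusted p under 0.05 was found for 2 of 28 members and 5.63% of all probes, again near the background. With the common floor the 8 became 3 (3.96% of all probes). Rhox1 differed by 0.66 ± 0.26 (adjusted p = 0.877), Rhox2e by 1.46 ± 0.63 (adjusted p = 0.885) and Rhox8 (A_55_P2130725) by -0.38 ± 0.19 (adjusted p = 0.890). The first 2 were 0.30 and 0.56 on slide 1, with its single ESC array. The high group joins a line with low Rhox2 and Rhox4 levels, Nanog-GFP SNEL#2, to one with high levels, Oct4-GFP SNEL#1, so its mean describes neither.

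For the 7 iPSC lines together against the ESC lines, again 0 of 28 members were called (0% of all probes). An unadjusted p under 0.05 was found for 12 members and 8.94% of all probes. The median difference was 1.62 and 23 members were positive. All 7 iPSC lines lay above all 3 ESC lines for 4 members, all of them Xlr probes (0.632% of all probes), and below for 1 (3.26%). With the common floor the 4 became 2 (0.315% of all probes). Xlr4a (A_55_P2124586) had -4.34 ± 1.92 in the iPSC lines (SD, n = 7) and -7.54 ± 0.31 in the ESC lines (SD, n = 3), where it was not well above background, and was at least 2.96-fold higher (adjusted p = 0.346). Rhox2e differed by 1.84 ± 0.58 (adjusted p = 0.341).

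Between the grades, the 4 good and high lines were compared with the 3 poor lines. Limma called 0 of 28 members (0% of all probes), and 10 had an unadjusted p under 0.05 (5.38% of all probes). The difference was negative for 24, with a median of -1.48 against -0.04 over all probes. The good and high lines all lay below the poor lines for 6 members (3.6% of all probes) and above for 0 (2.27%). With the common floor the 6 became 3 (1.89% of all probes). Rhox2h (A_55_P1984343) differed by -2.33 ± 0.55 (adjusted p = 0.809), with -5.98 ± 0.88 in good and high lines (SD, n = 4). Xlr3a was at least 1.64-fold lower (adjusted p = 0.899) and Xlr4a (A_55_P2124582) differed by -2.18 ± 0.80 (adjusted p = 0.906). The probes of Rhox2h (A_55_P1984343) and Xlr3a passed the filter on detection only through the arrays of poor lines. Without Nanog-GFP OSKM#2 the difference of Xlr4a was -1.11 and the median over the members was -1.01, and for Xlr3a no fold could be bounded. Under the common floor and under normexp the median over the members was -0.79 and -0.53.

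Between the factor sets, SNEL lines (n = 3) had lower levels than OSKM lines (n = 4) for 25 of 28 members, with a median difference of -1.17 against -0.01 over all probes. Limma called 0 of 28 members and 0.00258% of all probes, and 11 members had an unadjusted p under 0.05 (9.42% of all probes). All SNEL lines lay below all OSKM lines for 5 members, all Xlr probes (4.17% of all probes), and above for 2, Rhox6 and Rhox9 (3.41%). With the common floor the 5 became 0 (2.55% of all probes), and Rhox6 and Rhox9 stayed above. Rhox2c differed by -2.83 ± 0.98 and the brighter Rhox2h probe by -1.75 ± 0.52 (adjusted p = 0.498 for both), and Rhox6 by 1.43 ± 0.50 in the other direction (adjusted p = 0.498). One line decided the outcome of this comparison. Without Oct4-GFP SNEL#1, limma called Rhox2h A_55_P1984344 (-2.43, adjusted p = 0.0331) and Rhox2c (adjusted p = 0.0292) among 409 probes in all. The SNEL group then held only lines of the Nanog-GFP name, and the line left out was the SNEL line with high levels. These calls therefore describe the Nanog-GFP SNEL lines and not SNEL lines in general. Rhox2c was then well above background on 0 of the 4 SNEL arrays and on 8 of the 8 OSKM arrays, and at least 7.06-fold lower in the SNEL lines.

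Lines that share the first part of their name were compared with 2 arrays against 2 and no test. In the Nanog-GFP lines, all 9 Xlr probes lay below Nanog-GFP OSKM#2 in Nanog-GFP SNEL#3 and in Nanog-GFP SNEL#2, on both arrays (27.3% and 29% of all probes did). Of the 19 Rhox probes, 11 lay below in each, and 2 and 3 lay above (37.2% and 38.6% of all probes), Rhox6 and Rhox9 among them. Rhox2c was at least 13.5-fold lower in SNEL#3 and at least 23.7-fold lower in SNEL#2. In the Oct4-GFP lines the Rhox pattern was another one, with 6 of 19 Rhox probes above (23.2% of all probes) and 6 below (36.2%) when SNEL#1 was set against OSKM#2. Rhox4a, Rhox4g and Rhox10 were 1.79-fold, 1.53-fold and 1.54-fold higher in SNEL#1, whereas 8 of 9 Xlr probes were lower. This difference between the Nanog-GFP and the Oct4-GFP lines was not tested.

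Set against the ESC line of the same name, Oct4-GFP SNEL#1 had 13 of 19 Rhox and 9 of 9 Xlr probes above on both arrays (21.5% of all probes), and Oct4-GFP OSKM#2 also had 13 and 9 (27.2%). Nanog-GFP OSKM#2 had 12 and 9 (32%) and KH2_OSKM 11 and 6 (28.9%). The Nanog-GFP SNEL lines had 6 and 7 for SNEL#3 (34.8%) and 4 and 4 for SNEL#2 (36.7%), for Rhox and Xlr in that order. Many of these Xlr probes were not well above background on any array of the iPSC line, and counting only those that were leaves 2 in SNEL#3, 2 in SNEL#2, 7 in Oct4-GFP SNEL#1 and 5 in KH2_OSKM, while both OSKM#2 lines keep 9. Rhox probes lay below the ESC line on both arrays for 5 members in Nanog-GFP OSKM#2 (33.1% of all probes), 6 in SNEL#3 (28.4%), 7 in SNEL#2 with 3 Xlr probes (29.9%), 2 in Oct4-GFP OSKM#2 (34.7%), 2 in Oct4-GFP SNEL#1 (39.3%) and 0 in KH2_OSKM (33.8%). Rhox2c was at least 22.6-fold higher in Oct4-GFP OSKM#2 and at least 15.9-fold higher in Oct4-GFP SNEL#1 than in Oct4-GFP ESCs, and 39.5-fold higher in Nanog-GFP OSKM#2 than in Nanog-GFP ESCs. Rhox13 was 7.72-fold, 6.61-fold and 6.03-fold higher in the same comparisons.

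The genes around the clusters differed little by their medians. Of genes with a probe within 500 kb, 27 around the Rhox probes had a median poor-minus-ESC difference of -0.02 and a median range over lines of 1.18, and 54 around the Xlr probes had -0.03 and 0.84. Ranges over 4 log2 units were found for 5 of the 54 genes around Xlr and 2 of the 27 around Rhox, against 2.97% of all probes. Around Xlr these were DXBay18 (6.59), LOC674948 (5.90), Gm8617 (4.77), Gm5640 (4.28) and Pnma5 (4.23), all highest in Nanog-GFP OSKM#2. Around Rhox they were LOC673318 (5.83), highest in the same line, and LOC100046720 (4.50), highest in KH2_OSKM. DXBay18, LOC674948, LOC673318 and LOC100046720 were well above background on 10, 5, 11 and 4 of the 20 arrays. Their ranges therefore include levels of arrays on which they were not detected. The Ctag2l1 and Ctag2l2 genes, relatives of the human cancer-testis antigens, had -0.55 to -1.20 and -1.41 to -2.16 in the 4 OSKM lines and Oct4-GFP SNEL#1, above the -2.22 to -3.56 and -3.12 to -4.81 of the other 5 lines.

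Other germline genes and the silencing machinery were read from lists. The 20 genes for DNA methylation and silencing, such as Dnmt1, Dnmt3b, Uhrf1 and Setdb1, were all measured, with 9 positive and 11 negative poor-minus-ESC differences and a median of -0.03. Autosomal germline genes that DNA methylation is known to silence had 13 of 16 measured genes positive and a median of 0.98. Among them Dazl, an RNA-binding protein of germ cells, had 0.26, -0.13 and 0.13 in the poor lines, 0.60 and -2.92 in the good, -2.18 and 0.71 in the high and -2.02, -0.37 and -1.26 in the ESC lines, so that both Nanog-GFP SNEL lines were low and Oct4-GFP SNEL#1 was high, as for the Rhox2 copies. Other X-linked germline genes had 9 of 11 positive and a median of 0.98, and Nxf3, an RNA export factor of the testis, stood at 1.07 in Nanog-GFP OSKM#2 against -6.20 to -2.80 in the other 9 lines. In these 3 lists limma called 0 genes in poor against ESC lines. An unadjusted p under 0.05 was found for 2 of 20, 3 of 16 and 2 of 11 genes, against 9.07% of all probes.

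Markers of other cell states were read in the same way. The two-cell-like list, genes such as Zscan4c and Zscan4f that mark a rare state of pluripotent cultures, had 6 of 7 measured genes positive in poor against ESC lines, with a median of 2.66, and Zscan4f had 4.33 in Oct4-GFP SNEL#1, 3.64 in Oct4-GFP OSKM#2 and 2.29 in Nanog-GFP OSKM#2 against -5.22 to 1.24 in the other 7 lines. These are the 3 lines that were among the 4 highest for every Rhox2 and Rhox4 probe, and the part of such cells in the Rhox result was not tested. Zscan4f is an example chosen after the values of the 7 genes were seen. The summed log2 level of this list was 5.04, 4.47 and 3.71 in these 3 lines, in that order, and 2.51 to 3.52 in the other 7. It was lowest in KH2_OSKM, which was among the 4 highest lines for 5 of 7 Rhox2 and Rhox4 probes. By the list's median level, KH2_OSKM (-3.27) lay above Nanog-GFP OSKM#2 (-3.59). Germ cell, trophoblast and primitive endoderm markers had medians of 0.09, 0.04 and 0.20. The fibroblast list had 6 of 7 negative differences and a median of -3.58. Bulk RNA does not tell fewer expressing cells from less RNA in each cell.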

How the data were processed

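The 20 scanner files, made with Feature Extraction 10.1.1.1 on array design 028005 per the file headers, hold the spot intensity after background subtraction, as the authors deposited it. The deposited value table holds the authors' log2 values, with column medians of 6.27 to 6.28 and nearly equal distributions. Its ranks follow the scanner signals (Spearman at least 0.998), and it was used only as an alternative. It has no centring by gene, and its exact normalization is not given in the sources used here. The submitters' processing notes name limma.

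Of 62976 spots, 59305 were not controls. Spots marked as outliers were set to missing (198 probes), the spots of a repeated probe were averaged (432 probes), and saturation was seen for 0 probes. Each array's log2 values were scaled to its 75th percentile (513 to 914 intensity units). A probe was kept if detected above background on 4 or more arrays. Averaging both arrays makes the line the replicate, and the labels do not say whether the arrays came from separate cultures. Limma 3.58.1 in R 4.3.3 was fitted over all 38750 probes with Benjamini-Hochberg adjustment and a threshold of 0.05, and tables were made with Python 3.11.15 and pandas 2.3.3. The fit was tested on simulated data. Gene names came from the files and RefSeq (35 of 39 members matched). Per comparison, the 3 member genes with the smallest p were named, besides the brightest probe of members with detected levels. Further examples were chosen after their values were seen. The members and lists were chosen with earlier results of these data known. Alternatives were other normalizations, no filter, 1 probe per gene, slide or line name in the model, single slides and leaving out each line. A common floor and the second KH2_OSKM array alone were chosen after seeing the data. The number of arrays limits the precision.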

Additional observations from a re-analysis of the deposited data

Results flagged for a closer look

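Among the 4 OSKM lines and among the 7 iPSC lines, 9 member levels lay far from the rest by Dixon's criterion among 48 groups of 24 genes, where chance gives about 1 in 20 groups, and genes that share target sequence are not independent. Of the 9, 7 concern Nanog-GFP OSKM#2. They are Xlr5b at 1.47 and Xlr5c at 1.85, each both among the 4 OSKM lines and among the 7 iPSC lines, Xlr4b at 0.29 among the OSKM lines, and Xlr3a at -2.19 and Xlr5a at -1.54 among the iPSC lines. In each case this line was the highest. The other 2 concern Rhox1, where BC_2 OSKM was low among the OSKM lines at -3.29 and Nanog-GFP SNEL#3 was low among the iPSC lines at -4.10, although the lines did not pass the test for this gene.

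For 4 Rhox genes the difference between SNEL and OSKM lines had opposite directions in lines of the Nanog-GFP and the Oct4-GFP name, in every line. It was -2.93 and 0.84 for Rhox4a, -1.75 and 0.65 for Rhox4e, -3.30 and 0.61 for Rhox4g and -2.50 and 0.63 for Rhox10 (Nanog-GFP first). These differences between names were not tested, since each Oct4-GFP value rests on 1 line of each kind. The rule was applied to the 24 member genes, and its share over all probes was not counted. Taken singly, 27.3% and 29% of all probes lay below Nanog-GFP OSKM#2 in Nanog-GFP SNEL#3 and SNEL#2. In Oct4-GFP SNEL#1, 23.2% lay above Oct4-GFP OSKM#2. The probes of Rhox4e and Rhox4g can bind the same Rhox4 copies.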

How the results depend on the processing

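The count of members called was 0 in all settings for 5 of the 6 group comparisons. For SNEL against OSKM it ran from 0 to 2 when lines were left out in turn, with 2 members called without Oct4-GFP SNEL#1. That setting leaves only Nanog-GFP lines in the SNEL group. Between 17 and 22 members differed between lines, against 20 in the main setting, where 58.6% of all probes did. The count of members with a range over 4 log2 units was 12 (2.97% of all probes). It fell to 5 under normexp correction, to 6 in the authors' deposited table and to 5 with the common floor (0.893% of all probes). When lines were left out in turn it ran from 4 (without Nanog-GFP OSKM#2) to 12. Members whose poor lines all lay above all ESC lines numbered 11 with the common floor (4.1% of all probes), against 18 (6.65%), and 18 to 20 otherwise. Shares of all probes are not given for the other settings, so their counts alone do not set the members apart. Of the named differences, 1 changed direction, that of Rhox3f in good against ESC lines, which was 0.10 on slide 1 against -0.56. That slide holds 1 ESC array, and the difference did not pass the test in any setting. Of the planned values, 324 counted as the same. For single-slide values this means only a shift smaller than the spread between lines. For the rest it means the same direction and side of the threshold. Another 2 passed the threshold (the SNEL values without Oct4-GFP SNEL#1), and 10, all single-slide values, moved by more than that spread. For the replicate numbers of the labels, no paired analysis was possible because they mark the arrays of one line, which were averaged. The name of the line pairs each poor line with an ESC line, and with this name as a block 0 members were called in poor against ESC lines (smallest adjusted p = 0.455). The small number of lines and signals near background limit these results: most Xlr probes were not detected in ESC lines, where only bounds on the fold can be given.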
